A study of Homo sapiens with 6 samples.

Results

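The 10 genes described here code for netrins, semaphorins and receptors of both, the guidance cues that steer migrating cells and growing axons. They are UNC5B, NEO1 and DCC among the netrin receptors, the netrins NTN1 and NTN4, the semaphorins SEMA3C and SEMA4B, and the semaphorin receptors NRP1, NRP2 and PLXNB2. They were picked out of 60676 gene identifiers by symbol, and the symbols were selected on the normalized counts of these same libraries. How they differed between the conditions is therefore given as a description with its standard error (SE). Where calls by limma are counted for these genes, the counts are a description too, and nothing is read from them. HT29, an established human colorectal adenocarcinoma line labelled wild type, was kept for 48 h in control medium (untreated), in histidine-depleted medium or in tryptophan-depleted medium, and RNA of 2 samples per condition was sequenced. RPMI was the base of the medium without histidine and DMEM F-12 that of the medium without tryptophan, both with dialyzed serum, while the base of the control medium for the sequenced RNA is not given in the sources used here. Full RPMI, the base of the medium without histidine, served as the control in the proteomics cultures of the study. If the base differed from that of the control, its change cannot be told apart from removal of the amino acid, and between the depletions the amino acid removed and the base medium cannot be told apart either. The labels do not say whether the 2 samples of a condition came from separate cultures, so the errors and p-values measure only the spread between these samples, which may be technical.

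Netrins are secreted, laminin-related proteins. They attract through DCC and NEO1 (neogenin) and repel through receptors of the UNC5 family, which are also known as dependence receptors that favour cell death when they have no ligand. Semaphorins are secreted or membrane-bound ligands of the plexins, and the secreted class 3 members such as SEMA3C use the neuropilins NRP1 and NRP2 as binding co-receptors, which also bind VEGF. SEMA4B is a transmembrane semaphorin, and PLXNB2 is a B-class plexin that binds class 4 semaphorins. In the gut, netrin receptors have been studied as regulators of epithelial survival, and DCC takes its name from its frequent deletion in colorectal carcinoma.

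The list of RefSeq start sites (GRCh38.p14) used here held 7 of the 10 genes, in 11 windows. It had no entry for UNC5B, NTN1 and NRP1, which does not mean that RefSeq lacks them. The bases upstream of a start that lie outside annotated exons are printed for 3 of them, 5′ to 3′ on the strand of the gene. NTN4 (of its 2 windows, the 1 without exonic bases) and NRP2 are shown because, of the genes with a window, they were those with the larger increases in both depletions (PLXNB2, not shown, changed less and turned to -0.053 under histidine depletion with quantile normalization), and SEMA3C because it held the only match to a searched motif, which is set in capitals.
NTN4, minus strand, chr12:95790765-95791014: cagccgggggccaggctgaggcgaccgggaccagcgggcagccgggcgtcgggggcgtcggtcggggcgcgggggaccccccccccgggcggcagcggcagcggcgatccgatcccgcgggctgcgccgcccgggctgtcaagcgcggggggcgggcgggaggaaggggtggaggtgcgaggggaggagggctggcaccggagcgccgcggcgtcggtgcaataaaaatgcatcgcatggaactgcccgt
NRP2, plus strand, chr2:205682251-205682499: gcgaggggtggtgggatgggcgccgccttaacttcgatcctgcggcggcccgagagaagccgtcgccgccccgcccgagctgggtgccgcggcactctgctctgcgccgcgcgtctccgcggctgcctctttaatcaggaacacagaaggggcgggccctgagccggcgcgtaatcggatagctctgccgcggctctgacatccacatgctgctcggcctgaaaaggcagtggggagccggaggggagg
SEMA3C, minus strand, chr7:80922390-80922639: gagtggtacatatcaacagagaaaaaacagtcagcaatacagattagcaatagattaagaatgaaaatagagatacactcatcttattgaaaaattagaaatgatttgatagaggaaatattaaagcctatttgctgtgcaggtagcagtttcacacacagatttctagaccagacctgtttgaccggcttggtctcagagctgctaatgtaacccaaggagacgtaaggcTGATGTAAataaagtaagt

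The 5 motifs searched on both strands in the 250 bases upstream of each start were AP-1 (TGANTCA), the cAMP response element (TGACGTCA), the CARE element bound by ATF4 and C/EBP proteins (TGATGNAA), the E-box (CACGTG) and the TEAD motif (GGAATG). The capitals in the SEMA3C sequence mark the CARE letters, which begin 19 bases upstream of the start, and this was the only match in the 11 windows. Of 35116 RefSeq windows of the same length, 6.57% held the AP-1 letters, 1.65% the cAMP response element, 3.14% the CARE letters, 6.34% the E-box and 11.9% the TEAD letters. A match is a match of letters and does not show binding.

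The libraries held 46390819 to 64388876 reads counted on genes. These totals are above the mean number of read pairs in the labels, so a read here is 1 step of the deposited values and need not be 1 sequenced pair. Of 10 colon epithelial markers, 9 had at least 20 reads in every library, and their summed normalized count was 448603 to 476608 in untreated cells, 583285 to 616402 under histidine depletion and 631429 to 635308 under tryptophan depletion. Under histidine depletion EPCAM, CDH1, KRT8, KRT19 and KRT20 were above and KRT18, LGALS4, VIL1, CDX1 and CDX2 below both untreated libraries, for example LGALS4 at 54148 and 56465 normalized counts in untreated and 17513 and 19659.8 in histidine-depleted cells. The marker under 20 reads was CDX1, at 20 and 19 reads in untreated cells, 0 under histidine depletion, and 5 and 3 under tryptophan depletion. The fibroblast markers COL1A2, COL3A1, DCN and THY1, the endothelial CDH5, the leukocyte markers PTPRC, CD3E, CD68, TPSAB1 and CPA3, and the neural markers SNAP25, S100B and SOX10 had at most 3 reads in every library. The 7 leukocyte markers summed to 172 to 185 normalized counts in untreated, 107 to 128 in histidine-depleted and 440.4 to 462 in tryptophan-depleted cells, almost wholly through CD14 and CD79A, and the 5 endothelial markers to 130.3 to 153, 56.0 to 65.1 and 161 to 166. In bulk RNA, fewer cells of a kind and less RNA per cell cannot be told apart.

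UNC5B differed most among the 10 genes, and in opposite directions in the depletions. Its normalized counts, on a scale common to the 6 libraries, were 303 and 349 in untreated cells, 45.2 and 73.3 under histidine depletion, and 8059.8 and 7983 under tryptophan depletion. The groups did not overlap, with the histidine-depleted libraries below and the tryptophan-depleted libraries above both untreated libraries. By the group means, UNC5B was 5.47-fold lower under histidine depletion (log2 fold change -2.47, SE 0.175) and 24.5-fold higher under tryptophan depletion (log2 fold change 4.61, SE 0.0571). Log2 fold changes are on the scale of log2(normalized count + 1) throughout. By log2 fold change it was the 16th highest of 17960 genes fitted under tryptophan depletion and the 348th lowest of 18288 under histidine depletion. Set against each other, the depletions were 135-fold apart (log2 fold change -7.10, SE 0.144), the 3rd lowest of 18264 genes. UNC5B (ENSG00000107731) lies at chr10:71212570-71302864 on the plus strand of GRCh38, and none of its 6841 exonic bases overlap exons of another annotated gene. The summed leukocyte markers, through CD14, and the summed endothelial markers, through TEK, were also lowest under histidine and highest under tryptophan depletion. The other endothelial markers did not follow that order, with PECAM1 lower in both depletions and VWF highest under histidine depletion, and the defining genes PTPRC and CDH5 had at most 3 reads in every library.

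**Figure D1:**
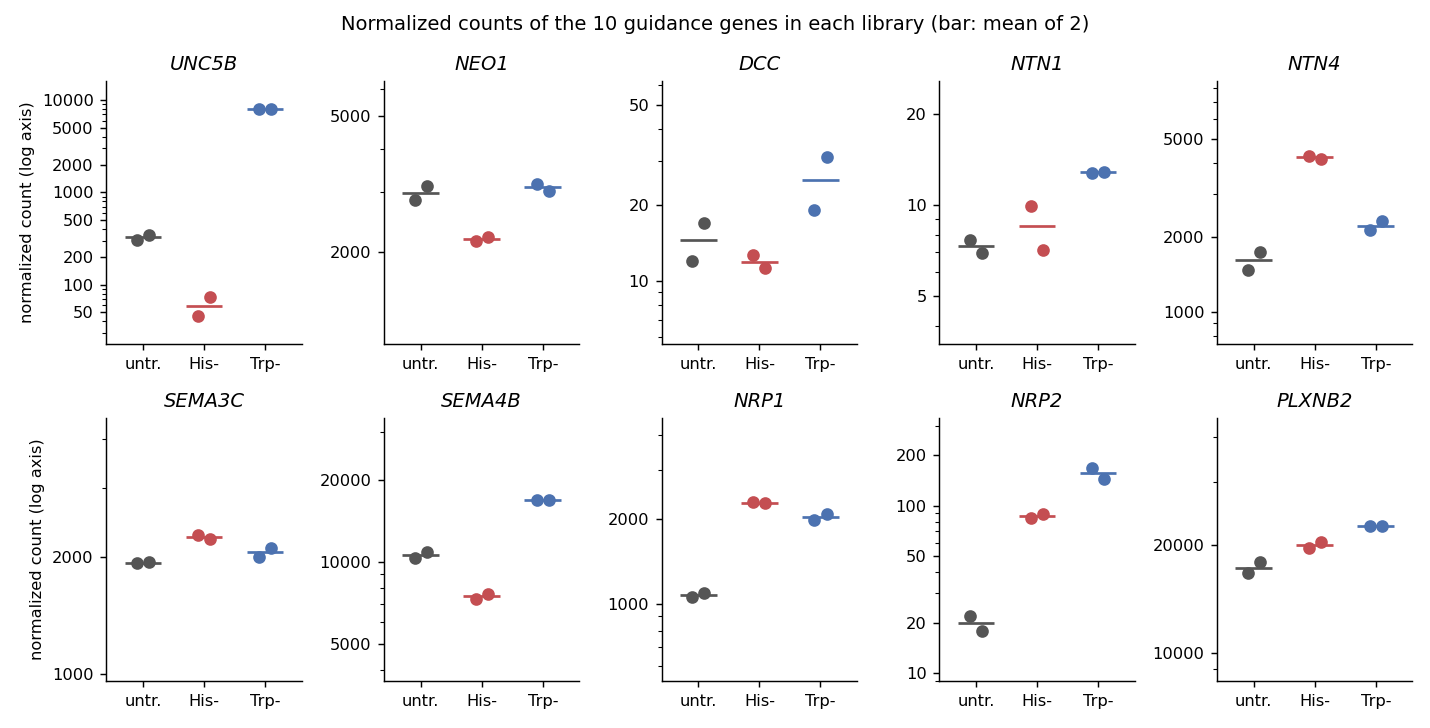
Normalized counts (log axis, a separate range per gene) of the 10 guidance genes in untreated (untr.), histidine-depleted (His-) and tryptophan-depleted (Trp-) HT29 cells. Points are libraries and bars are means of 2 libraries. UNC5B runs from 45.2 to 8059.8, while NEO1 stays between 2151 and 3169.

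NEO1, the receptor of netrins and of RGM proteins, had normalized counts of 2843 and 3118 in untreated, 2151 and 2209 in histidine-depleted, and 3169 and 3025 in tryptophan-depleted cells. The histidine-depleted libraries lay below all others (log2 fold change -0.44, SE 0.0568), while the untreated and tryptophan-depleted libraries overlapped (0.049, SE 0.0502). That value was -0.018 without untreated replicate 1 and 0.12 without untreated replicate 2. DCC, the attractive netrin receptor, was close to the limit of what this depth can measure. It had 11 and 17 reads in untreated, 14 and 11 in histidine-depleted, and 18 and 34 in tryptophan-depleted cells. The untreated and histidine-depleted ranges overlapped (log2 fold change -0.24, SE 0.395), and the tryptophan-depleted libraries were above both others (0.73, SE 0.360 against untreated) at 19.2 and 31.1 normalized counts. Without tryptophan-depleted replicate 2 this value was 0.39, and without replicate 1 it was 1.07. NEO1 (ENSG00000067141) lies at chr15:73051710-73305205 and DCC (ENSG00000187323) at chr18:52340197-53535899, both on the plus strand. Of the exonic bases of DCC, 1.45% overlap a gene on the other strand (LINC01917).

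Per kilobase of transcript, UNC5B and NEO1 changed places. On the TPM scale, which divides reads by exonic length and gives every library the same total, UNC5B was at 3.51 ± 0.354 (SD, n = 2) in untreated, 0.598 ± 0.202 in histidine-depleted and 83.5 ± 0.664 in tryptophan-depleted cells, and NEO1 at 27.0 ± 1.77, 18.5 ± 0.376 and 27.1 ± 0.922. UNC5B made up 11.2% and 11.7% of the summed level of the 3 netrin receptors in the untreated libraries. Its share was 2.43% and 3.78% under histidine depletion and 75.1% and 75.7% under tryptophan depletion. DCC never exceeded 0.355% of that sum. The range of the share did not overlap between any 2 conditions.

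**Figure D2:**
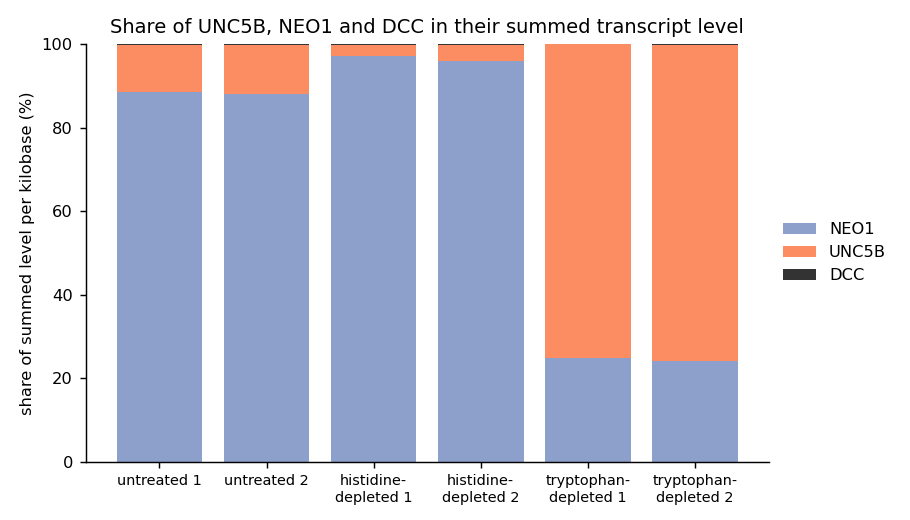
Share (%) of NEO1, UNC5B and DCC in their summed transcript level per kilobase, for each library. NEO1 makes up 88.6% and 88.0% in untreated cells, 97.2% and 95.9% under histidine depletion, and 24.8% and 24.1% under tryptophan depletion, where UNC5B takes most of the rest. DCC is too low to see in most bars.

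Of the netrins, NTN4 carried nearly all the signal. NTN4, a netrin of basement membranes that binds laminin, had 1479.9 and 1749.5 normalized counts in untreated, 4269.9 and 4125 in histidine-depleted, and 2136 and 2321 in tryptophan-depleted cells. The 3 conditions did not overlap, and the order was untreated, tryptophan-depleted, histidine-depleted. The log2 fold change was 1.39 (SE 0.0644) under histidine depletion and 0.46 (SE 0.0563) under tryptophan depletion, and histidine-depleted cells were 1.88-fold above tryptophan-depleted cells (log2 fold change 0.91, SE 0.0644). NTN1, the founding ligand of DCC and UNC5 receptors, had 7 and 7 reads in untreated, 11 and 7 in histidine-depleted, and 12 and 14 in tryptophan-depleted cells. The tryptophan-depleted libraries were the highest, but the mean of NTN1 stayed under the 10 normalized counts required for the fit, so no fold change is given. NTN4 made up 99.6% to 99.9% of the summed level per kilobase of these netrins in every library. NTN4 (ENSG00000074527) lies at chr12:95657807-95791189 on the minus strand and NTN1 (ENSG00000065320) at chr17:9021510-9244000 on the plus strand, neither with exonic overlap.

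The 2 semaphorins behaved differently. SEMA4B had 10362 and 10867 normalized counts in untreated, 7304 and 7633 in histidine-depleted, and 16924 and 16960.0 in tryptophan-depleted cells. Like UNC5B, SEMA4B was lower under histidine depletion (log2 fold change -0.50, SE 0.0505) and higher under tryptophan depletion (0.67, SE 0.0474), with no overlap between conditions, though its range was far narrower. The depletions were 2.27-fold apart (log2 fold change -1.18, SE 0.0401). SEMA3C had 1923 and 1939 normalized counts in untreated, 2264 and 2223 in histidine-depleted, and 1999.7 and 2105 in tryptophan-depleted cells. It was slightly higher under histidine depletion (log2 fold change 0.23, SE 0.0549), and under tryptophan depletion the log2 fold change of 0.080 was not far above its SE of 0.0534. SEMA4B (ENSG00000185033) lies at chr15:90160604-90229679 on the plus strand and SEMA3C (ENSG00000075223) at chr7:80742538-80922359 on the minus strand.

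The neuropilins were higher in both depletions. NRP1 had 1059 and 1088 normalized counts in untreated, 2305 and 2281 in histidine-depleted, and 1982 and 2088 in tryptophan-depleted cells, which gave log2 fold changes of 1.10 (SE 0.0583) and 0.91 (SE 0.0573). NRP2 was much scarcer, with 20 and 18 reads in untreated, 93 and 87 in histidine-depleted, and 157 and 158 in tryptophan-depleted cells. Its 3 conditions did not overlap, and the log2 fold changes were 2.08 (SE 0.241) and 2.91 (SE 0.220), the latter the 126th highest of 17960 genes. NRP1 was higher under histidine than under tryptophan depletion by 0.17 (SE 0.0494), whereas NRP2 was lower by a log2 fold change of -0.84 (SE 0.194). NRP2 made up 1.68% and 1.35% of the summed level per kilobase of the neuropilins in untreated, 2.93% and 3.12% in histidine-depleted, and 6.55% and 5.43% in tryptophan-depleted cells. NRP1 therefore remained the main neuropilin in every library. NRP1 (ENSG00000099250) lies at chr10:33177492-33336262 on the minus strand and shares 4.87% of its exonic bases with a gene on the other strand, and NRP2 (ENSG00000118257) lies at chr2:205681990-205798133 on the plus strand and shares 1.06%.

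PLXNB2 was the most abundant of the 10 genes per kilobase in every condition. It had 16709.9 and 17886 normalized counts in untreated, 19610.4 and 20353 in histidine-depleted, and 22645 and 22609.6 in tryptophan-depleted cells. The conditions did not overlap, and the log2 fold change was 0.38 (SE 0.0491) under tryptophan depletion. Under histidine depletion it was 0.22 (SE 0.0532), and quantile normalization turned it to -0.053. PLXNB2 (ENSG00000196576) lies at chr22:50274979-50307646 on the minus strand.

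**Figure D3:**
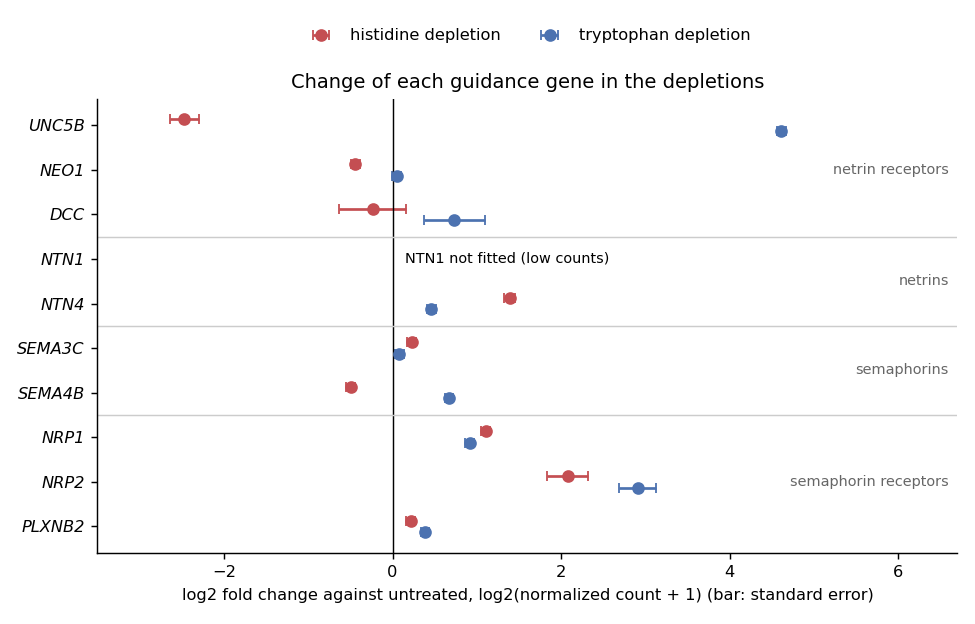
Log2 fold change against untreated on the scale of log2(normalized count + 1), with its standard error as a bar, for histidine and tryptophan depletion, grouped by role. UNC5B (-2.47 and 4.61) and SEMA4B (-0.50 and 0.67) lie on opposite sides of 0, NTN4, NRP1, NRP2 and PLXNB2 to the right of 0 in both depletions (PLXNB2 under histidine depletion is -0.053 with quantile normalization), and NTN1 was not fitted.

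Of the 10 genes, 9 passed the filter on low counts in every comparison. Under histidine depletion 5 of them were past the threshold (limma adjusted p under 0.05 over all genes fitted) in the higher direction, where 39.1% of 18288 genes were, and 3 in the lower direction, where 38.2% were. Under tryptophan depletion 6 were higher, against 36.1% of 17960 genes, and 0 lower, against 34.8%. Between the depletions 3 were higher under histidine depletion, against 38.7% of 18264 genes, and 6 lower, against 38% of them. The genes had been chosen on these contrasts, so these counts are a description and nothing is read from them. Between the depletions, DCC without tryptophan-depleted replicate 2 (-0.65), NRP1 without tryptophan-depleted replicate 1 (0.14) and SEMA3C without the same library (0.092) no longer passed. The median log2 fold change of the 9 genes was 0.22 under histidine depletion, 0.67 under tryptophan depletion and -0.51 between the depletions, and over all genes fitted it was 0.010, 0.013 and 0.011. The comparisons with untreated cells share the same untreated libraries.

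In untreated cells the order of the levels per kilobase, on the TPM scale, was PLXNB2 (175 ± 8.5, SD, n = 2), SEMA4B (112 ± 3.81), NTN4 (27.3 ± 3.23), NEO1 (27.0 ± 1.77), SEMA3C (23.3 ± 0.145), NRP1 (6.87 ± 0.134), UNC5B (3.51 ± 0.354), NRP2 (0.105 ± 0.0148), NTN1 (0.0839 ± 0.00556) and DCC (0.0813 ± 0.0195). The ranges of NTN4 and NEO1 overlapped, and so did those of NTN1 and DCC. All other neighbours in that order were apart. Under histidine depletion NTN4 (66.4 ± 1.52) came next after SEMA4B (73.8 ± 2.42), SEMA3C (25.4 ± 0.288) passed NEO1, and no neighbours overlapped. Under tryptophan depletion UNC5B moved to the third place behind PLXNB2 (222 ± 0.501) and SEMA4B (173 ± 0.0580), and only NTN1 and DCC overlapped.

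The genes differed in how many codons they hold for the amino acids removed. In the coding sequence of the canonical transcript, the share of histidine codons ran from 1.94% in DCC to 3.98% in NTN4, with a median of 2.43% over 19609 protein-coding genes. The share of tryptophan codons ran from 0.925% in PLXNB2 to 2.27% in NRP2, with a median of 1.12%. UNC5B holds 21 histidine and 19 tryptophan codons among 945, which put it at percentile 41.4 for histidine and 82.3 for tryptophan. SEMA4B was at 34.2 and 76.8. NRP1 was at 56.7 and 80.7, and NRP2 at 47.7 and 87.7. NTN4 was high for both, at 89.3 and 83.7. Whether codon content goes with the changes in RNA was not tested.

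The genes whose profile over the 6 libraries lay nearest to that of UNC5B, by Euclidean distance of centred log2(normalized count + 1) over the 12479 genes that averaged 100 or more normalized counts, were ITPKA (distance 0.721), CEACAM5 (0.736), MUC5B (1.25), MUC5AC (1.29) and AKR1C2 (1.49). ITPKA, a kinase of inositol trisphosphate, had 121 and 140.2 normalized counts in untreated, 22.6 and 18.3 in histidine-depleted, and 2753 and 2864 in tryptophan-depleted cells. CEACAM5, which codes for carcinoembryonic antigen, had 497 and 540.1, then 66.9 and 105, then 7952 and 7856. MUC5B and MUC5AC are neighbouring genes of gel-forming mucins on chromosome 11. MUC5B had 37.2 and 37.8 normalized counts in untreated, 1.81 and 10.2 in histidine-depleted, and 522 and 546 in tryptophan-depleted cells. It was thus under 100 in every untreated and histidine-depleted library. MUC5AC had 2279 and 2441 in untreated, 452 and 434 in histidine-depleted, and 30847.5 and 28098 in tryptophan-depleted cells. AKR1C2 had 162 and 204 in untreated, 72.3 and 101 in histidine-depleted, and 5344 and 5461 in tryptophan-depleted cells (log2 fold changes -1.07 and 4.88). AKR1C2 has close paralogs, and its reads may be shared with them. The likeness of these 5 genes to UNC5B is what the search selected, so it is a description.

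Beside the 10 genes, 125 other genes of guidance families and their signalling were listed by family, with earlier results of these data known. Under histidine depletion 91 of them passed the filter, of which 31 were higher (34.1%, against 39.1% of all genes fitted), 46 lower (50.5%, against 38.2%) and 14 did not pass the threshold of limma. Under tryptophan depletion 38 of 89 were higher (42.7%, against 36.1%), 27 lower (30.3%, against 34.8%) and 24 did not pass. Their median log2 fold change was -0.21 and 0.14. Between the depletions, 32 of 91 were higher under histidine depletion (35.2%, against 38.7%) and 47 lower (51.6%, against 38%).

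The list of other netrin receptors and related genes was short. UNC5A, a repulsive netrin receptor like UNC5B, was the closer relative that could be fitted, with 56.8 and 73.6 normalized counts in untreated, 9.94 and 18.3 in histidine-depleted, and 146 and 108 in tryptophan-depleted cells. It fell under histidine depletion (log2 fold change -2.17, SE 0.303, limma adjusted p = 6.34e-07) and rose under tryptophan depletion (0.94, SE 0.179, limma adjusted p = 1.36e-06). UNC5CL, an UNC5-like protein, fell under histidine depletion (-1.53, SE 0.175, limma adjusted p = 2.62e-08), with 23.7% of its exonic bases shared with another gene on the same strand. The other 4 of the 6 genes in this list did not pass the filter on low counts. Named after its values were seen, UNC5C went the other way from UNC5A and UNC5B under histidine depletion, with 1 and 1 reads in untreated, 18 and 19 in histidine-depleted, and 1 and 0 in tryptophan-depleted cells, and UNC5D had reads in the histidine-depleted libraries (2 and 8) and 0 in all others. These differences were not tested. Of 8 listed ligands (netrins, RGM proteins and DRAXIN), 3 were fitted under histidine depletion. Of these, RGMB, a ligand of neogenin, fell (log2 fold change -0.35, SE 0.0869, limma adjusted p = 0.000791). That call was lost with quantile normalization (-0.12). As much as 45.8% of the exonic sequence of RGMB overlaps a gene on the opposite strand.

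Among 20 fitted genes of netrin signalling, 8 rose and 10 fell under histidine depletion (40% and 50%, against 39.1% and 38.2% of all genes fitted), and 9 rose and 6 fell under tryptophan depletion (45% and 30%, against 36.1% and 34.8%), by limma. DAPK1, a death-associated kinase that acts downstream of UNC5 receptors, had 5732 and 6033 normalized counts in untreated, 998 and 1190.5 in histidine-depleted, and 3070.0 and 2991 in tryptophan-depleted cells. It fell in both depletions, with log2 fold changes of -2.42 (SE 0.0652, limma adjusted p = 3.28e-20) and -0.96 (SE 0.0479, limma adjusted p = 1.31e-41). The depletions were fitted separately, so the sizes of p-values are not to be compared between them, here or below. TRIO, a guanine nucleotide exchange factor used by DCC, rose under histidine depletion (1.28, SE 0.0551, limma adjusted p = 2.36e-16). WASL, an activator of actin nucleation, rose in both (0.99 and 0.83, limma adjusted p = 5.31e-15 and 6.58e-36).

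Of 13 other semaphorins fitted under histidine depletion, 3 rose and 9 fell by limma (23.1% and 69.2%, against 39.1% and 38.2% of all genes fitted), and of 14 fitted under tryptophan depletion, 2 rose and 4 fell (14.3% and 28.6%, against 36.1% and 34.8%). SEMA4G fell under histidine depletion (log2 fold change -2.41, SE 0.0644, limma adjusted p = 2.83e-20), though 28.0% of its exonic bases overlap a gene on the opposite strand. SEMA4A fell in both depletions (-1.66 and -0.99). SEMA3A, the classical repellent of class 3, had 2014 and 2142 normalized counts in untreated, 1269 and 1232 in histidine-depleted, and 270.0 and 259 in tryptophan-depleted cells, and the fall was larger under tryptophan depletion (log2 fold change -2.98 against -0.72, difference 2.24, limma adjusted p = 1.72e-15). SEMA3B went with SEMA4B in direction, from 2874 and 2947 in untreated to 1375 and 1511 under histidine and 7167 and 7298 under tryptophan depletion. SEMA3B fell in the former to 0.499 of the untreated mean (limma adjusted p = 7.77e-14) and rose in the latter (log2 fold change 1.31, limma adjusted p = 2.82e-56).

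Of 7 other plexins fitted, 1 rose and 5 fell under histidine depletion (14.3% and 71.4%, against 39.1% and 38.2% of all genes fitted), and 4 rose and 1 fell under tryptophan depletion (57.1% and 14.3%, against 36.1% and 34.8%), by limma. PLXND1, a receptor of SEMA3E, fell the most under histidine depletion, from 982 and 952 normalized counts to 136 and 151 (log2 fold change -2.74, SE 0.0943, limma adjusted p = 3.16e-18). Its rise under tryptophan depletion (0.14, limma adjusted p = 0.0432) was lost in 7 alternatives and came to 0.028 without tryptophan-depleted replicate 1. PLXNB3, a B-class relative of PLXNB2, had 329 and 322 normalized counts in untreated, 110.2 and 134 in histidine-depleted, and 583 and 613 in tryptophan-depleted cells, with 20.4% of its exonic bases shared with another gene on the same strand. PLXNA2 fell to 3161 and 3264 from 4371 and 4483 under histidine depletion (-0.45, limma adjusted p = 1.79e-08) and rose to 7211 and 6882 under tryptophan depletion (0.66, limma adjusted p = 1.17e-27).

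In the list of semaphorin signalling, 12 of 26 genes rose and 11 fell under histidine depletion (46.2% and 42.3%, against 39.1% and 38.2% of all genes fitted), and 9 of 24 rose and 10 fell under tryptophan depletion (37.5% and 41.7%, against 36.1% and 34.8%), by limma. DPYSL2 (CRMP2), a mediator of SEMA3A signalling, fell in both depletions (-2.34 and -1.23). VEGFA, which binds the neuropilins, rose under tryptophan depletion from 10802 and 9606 to 31910.4 and 33184 (1.67, SE 0.0496, limma adjusted p = 2.14e-66). Under histidine depletion VEGFA was at 10383 and 10159.6, within the range of the untreated libraries (log2 fold change 0.021, limma adjusted p = 0.738), and the value was -0.23 with quantile normalization.

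The other guidance families gave further contrasts. SLIT1, a ligand of ROBO receptors, had 78.7 and 89.5 normalized counts in untreated, 79.5 and 78.3 in histidine-depleted, and 933 and 1026 in tryptophan-depleted cells (tryptophan depletion, log2 fold change 3.52, SE 0.105, limma adjusted p = 2.31e-66). ROBO1, its receptor, fell in both depletions (-2.35 and -2.19), and the difference between the depletions was -0.17 (limma adjusted p = 0.406). ROBO3 rose in both (0.57 and 0.59), and its histidine call was lost without histidine-depleted replicate 1 (0.39). Of 14 ephrins and EPH receptors fitted, 4 rose and 7 fell under histidine depletion (28.6% and 50%, against 39.1% and 38.2% of all genes fitted), and 9 rose and 4 fell under tryptophan depletion (64.3% and 28.6%, against 36.1% and 34.8%), by limma. EPHA2, an ephrin-A receptor of epithelia, rose under histidine depletion from 14268 and 14864 to 67119 and 66248 normalized counts (2.20, SE 0.0546, limma adjusted p = 6.51e-21). Under tryptophan depletion it also rose (0.21, limma adjusted p = 5.87e-05), a call lost without tryptophan-depleted replicate 2 (0.18). Its ligand EFNA1 rose in both depletions (0.89 and 0.96), EPHB2 rose in both (1.83 and 0.67), and EFNA2 fell in both (-2.62 and -0.52).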

How the data were processed

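RNA-seq of HT29 cells was analysed in 3 conditions of 2 libraries each. The libraries were stranded, from polyadenylated RNA, with unique molecular identifiers, and the sources used here do not give whether identifiers and strand entered the counting. Reads were aligned by the authors to GRCh38 with STAR 2.7.10a and counted with HTSeq 2.0.5 on gencode 38 genes. The deposited values are normalized counts, a non-negative signal made by dividing each count by a DESeq2 size factor, in separately normalized tables for the depletions. Every value (100%, within 0.01) was a whole multiple of the step of its library, so reads could be recovered. Values across all 6 libraries used recovered reads scaled together by the median of ratios, which moved the scale by at most 1.04%.

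GENCODE 44 gave names, coordinates, exonic lengths and coding sequences for 60357 of 60676 identifiers. Within its own table, each depletion was compared with untreated cells by limma 3.58.1 in R 4.3.3, two-sided and with the trend, on log2(normalized count + 1). Genes averaging 10 or more entered, and Benjamini-Hochberg adjusted p-values under 0.05 passed. Changes of low genes are understated on that scale. A fit of the 3 groups compared the depletions with each other. The members and lists were chosen with earlier results of these data known. Named were all 10 members, per list and depletion up to 2 genes with the largest change past the threshold whose groups did not overlap and whose higher group averaged 100 or more, and the 5 genes nearest to UNC5B. 1 gene that this rule selects is not reported here.

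As alternatives, the pseudocount was set to 0.5 and to 8, the filter was dropped or raised to 50, the trend was left out, quantile normalization was applied, other sets of libraries were fitted, each library was left out, and a replicate block was added. edgeR 4.0.16 (TMM) and DESeq2 1.42.0 were run on recovered reads. The code was tested on simulated data. Plots were drawn with matplotlib 3.10.9, and tables were handled with pandas 2.3.3 and numpy 2.4.6 under Python 3.11.15. Protein sequences were not analysed here.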

Additional observations from a re-analysis of the deposited data

Results flagged for a closer look

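The genes below lay on opposite sides of untreated cells in the depletions, with every histidine-depleted library below and every tryptophan-depleted library above both untreated libraries. The depletions also differ in their base medium, which cannot be told apart from the amino acid removed. For UNC5B and SEMA4B the log2 fold change between histidine and tryptophan depletion was -7.10 (SE 0.144) and -1.18 (SE 0.0401). Of 88 other guidance genes fitted in both comparisons with untreated cells, 16 were lower under histidine and higher under tryptophan depletion by limma. The reverse held for 5, while 17 were higher in both and 18 lower in both. The share of all genes fitted with each pair of directions was not computed, so nothing is read from these counts. Among the other guidance genes already named above, the log2 fold change between the depletions was -3.12 (SE 0.272) for UNC5A and -2.33 (SE 0.0482) for SEMA3B. It was -1.13 (SE 0.0418) for PLXNA2 and -2.29 (SE 0.106) for PLXNB3. For PLXND1 it was -2.89 (SE 0.0865), while its change under tryptophan depletion was 0.14, and 0.028 without tryptophan-depleted replicate 1. The genes given here with a value were picked for that pattern in the same libraries. Their differences are therefore a description, given without the p-values of limma.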

How the results depend on the processing

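With 2 libraries a group the errors rest on a spread shared across genes, and DCC and NTN1, with 7 to 34 reads, are poorly resolved. The counts of higher and lower genes stayed within 1.5 times the main count in all 180 values of the alternatives. Of 402 values of the 9 fitted members, 384 kept their direction and side of the threshold, 11 no longer passed it, 5 newly passed it, 1 moved and 1 turned. With quantile normalization PLXNB2 turned to -0.053 and VEGFA to -0.23 under histidine depletion, and WASL to -0.0033 between the depletions, and the cause was not tested. PLXNB2 under histidine depletion also fell short of the threshold without the trend (0.22) and without histidine-depleted replicate 2 (0.19). DCC between the depletions did so with no filter (-0.98), with DESeq2 (-1.08) and without histidine-depleted replicate 2 (-0.90) or tryptophan-depleted replicate 2 (-0.65). SEMA3C between the depletions did so in 4 alternatives (0.072 to 0.13) and NRP1 without tryptophan-depleted replicate 1 (0.14). UNC5B ranged from -2.81 to -2.13, from 4.51 to 4.72 and from -7.44 to -6.76. The median log2 fold change of all genes moved by -0.027 with quantile normalization under histidine depletion. It moved by -0.033 with no filter on low values under tryptophan depletion. Scaling centres the bulk of the genes, so small shifts of that median are fixed by it and show no stability.

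Samples share only a replicate number. The deviations of same-numbered samples correlated at 0.117 (untreated and histidine), -0.0527 (untreated and tryptophan) and -0.104 (between the depletions) over 12480 genes. With a replicate block, 7311 genes were higher and 7121 lower under histidine depletion, 6501 and 6265 under tryptophan depletion, and 7095 and 6974 between them, and of the other guidance genes 32 and 48, 38 and 28, and 32 and 47. A crossed block, chosen after seeing the data, gave 7165 and 7027 between the depletions, and 32 and 48 of the other guidance genes.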
